A study of Mus musculus with 3 samples.

Results

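The 10 genes described here encode nuclear receptors for steroid, retinoid, thyroid, oxysterol and vitamin D signals, or relatives of those receptors: Nr3c1, Rara, Rarg, Rxra, Rxrb, Vdr, Nr1h2, Thra, Nr1d1 and Esrra. They were taken from the transcript tables by symbol, and each symbol led to 1 gene, so that 10 of the 55536 mouse genes in the main gene table were followed. Polyadenylated RNA of regulatory T cells (Treg cells, the CD4 T cells that hold immune responses in check under the transcription factor Foxp3) was sequenced in 3 libraries, which the labels number as technical replicates 1, 2 and 3 and assign to biological replicate 1. The donor was an adult male mouse of 4 months that carried Foxp3CreERT2 (a tamoxifen-dependent Cre under the control of Foxp3) and the Rosa26YFP reporter, and the labels trace the cells to a bone marrow hematopoietic origin. All 3 libraries form 1 group and no second group was analysed here, so the comparisons below are between libraries and between genes. Whether the libraries came from 1 pool of cells or RNA is not stated by the labels, so any spread given is that between libraries labelled as technical replicates and may hold more than technical error.

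Nuclear receptors are transcription factors whose activity is set by small fat-soluble ligands. Retinoic acid receptors, the vitamin D receptor, thyroid hormone receptors and liver X receptors bind DNA as pairs with a retinoid X receptor, whereas the glucocorticoid receptor waits in the cytoplasm with heat shock proteins and enters the nucleus when it binds hormone. In T cells, retinoic acid is known for favouring Foxp3 expression and gut homing, glucocorticoids for restraining activation, and the receptors exchange corepressor for coactivator complexes when ligand arrives.

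The library totals were 9299013, 9188579 and 8284324 rounded expected counts in libraries 1, 2 and 3. All 6 Treg markers were detected, which here means at least 1 TPM (a level per transcript length) in every library, and their summed level was 2920, 3156 and 2882 TPM. Library 2 stood apart in some markers of other cells: the 5 erythroid markers summed to 1681, 9.02 and 1495 TPM in libraries 1, 2 and 3, and the 5 plasma cell markers to 169, 30.1 and 209.5 TPM. The hemoglobin gene Hbb-bs alone spanned 382-fold in scaled counts, with 603.5, 2.66 and 463.7 TPM, and the immunoglobulin gene Igha had 36.4, 1.35 and 98.5 TPM. The plasma cell list was split: Igha, Jchain and Mzb1 were lowest in library 2. Prdm1 (12.25, 15.65 and 17.27 TPM) and Sdc1 (0.21, 0.33 and 0.30 TPM) were lowest in library 1. The 6 B cell markers summed to 2338, 1825 and 1970 TPM, the 6 macrophage and neutrophil markers to 53.5, 13.0 and 32.8 TPM and the 2 CD8 T cell markers to 17.2, 15.97 and 21.4 TPM. Lyz2 of the macrophage and neutrophil list was lowest in library 2, but Csf1r (2.07, 3.45 and 4.18 TPM) and Adgre1 (1.18, 2.27 and 1.89 TPM) were lowest in library 1. No marker of these lists was at 0 in all libraries, though S100a8, S100a9 and Ngp of the macrophage and neutrophil list were at 0 in library 2, and in such bulk samples fewer cells of a type and less RNA per cell cannot be told apart. Library 1 also held more of the short transcripts: protein-coding genes among the shortest 10% lay at a median of 0.35 on the log2 scale above their own mean over the libraries in library 1, and at -0.15 and -0.18 in libraries 2 and 3, whereas the longest 10% lay at -0.21, 0.08 and 0.13.

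By the TPM of the main gene table, Nr3c1 and Nr1h2 were the most abundant of the 10 genes, and 9 of the 10 were detected. Their gene levels ran from 77.4 ± 8.71 TPM (SD over 3 libraries, as for every SD below) for Nr3c1 down to 0.757 ± 0.0907 TPM for Vdr, the member that stayed under 1 TPM in every library. Of all 22028 protein-coding genes, 10120 (45.9%) met the same rule. The median gene level was 6.70 TPM over the 10 receptor genes, 20.1 TPM over the detected protein-coding genes and 0.720 TPM over all protein-coding genes. Nr3c1 lay above 82.1% of the detected protein-coding genes and Nr1h2 above 66.2%, whereas the other 7 detected members lay between 6.66% for Esrra and 38.6% for Rarg. Nr3c1 alone took 49.5%, 43.6% and 50.0% of the summed TPM of the 10 genes.

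In order of gene level, Nr3c1 was followed by Nr1h2, Rarg, Rxrb, Nr1d1, Rara, Rxra, Thra, Esrra and Vdr. The ranges of neighbours over the 3 libraries separated Nr3c1 from Nr1h2, Nr1h2 from Rarg and Esrra from Vdr. From Rarg down to Esrra each gene overlapped the next, so the order of adjacent genes in that stretch was not resolved by these libraries, though genes further apart in it, such as Rarg and Nr1d1 or Rxrb and Thra, had separate ranges.

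**Figure D1:**
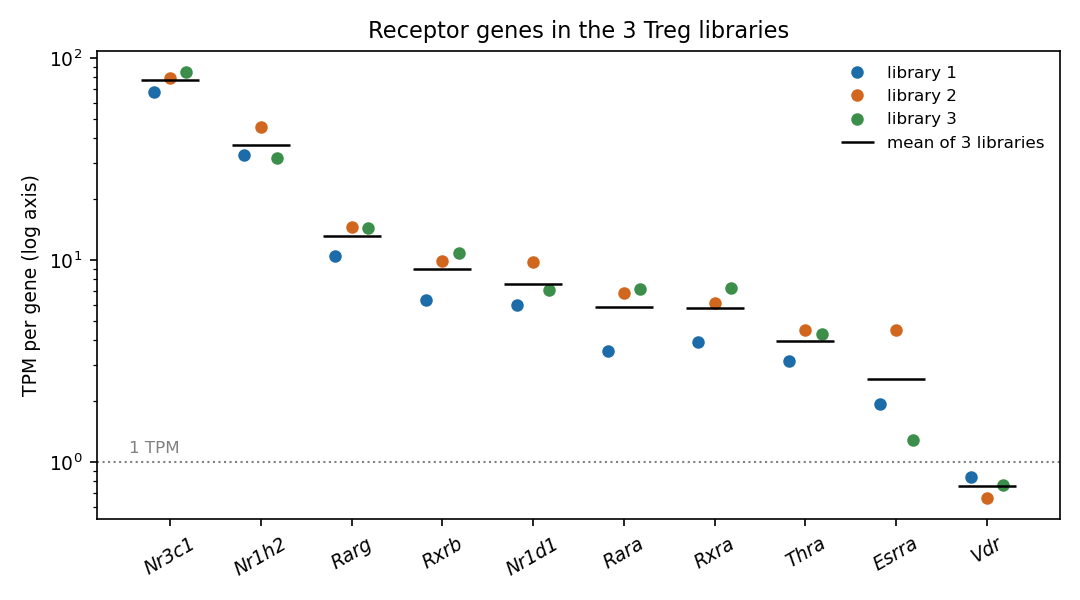
Gene level of each receptor gene in TPM on a log axis, with 1 point for each of the 3 libraries, a black line at their mean and a dotted line at 1 TPM. Nr3c1 and Nr1h2 stood clear of the rest, and Vdr was the only gene below the dotted line, at a mean of 0.757 TPM.

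Among all 49 nuclear receptor genes of the mouse list used here, 22 were detected: 9 of these 10 genes and 13 of the other 39. The median gene level of the detected others was 4.69 TPM, and the median over all the others was 0.1 TPM. Only Nr4a1, an orphan receptor induced by antigen receptor signals, exceeded Nr3c1, with a mean of 81.6 ± 17.5 TPM, and the ranges of these neighbours overlapped. Nr2c2, another orphan receptor, followed at 55.2 ± 14.5 TPM. Ppard, a receptor for fatty acids, spanned 2.16-fold in scaled counts (adjusted p = 0.00308), with 1.15, 3.62 and 2.70 TPM and its lowest value in library 1. No count in any library was found for 12 genes, namely Rarb, Rxrg, Ppara, Nr1h4, Nr1i2, Hnf4a, Hnf4g, Esrrb, Esrrg, Nr5a1, Nr5a2 and Nr0b1, where a count of 0 allows up to 0.323, 0.326 and 0.362 CPM (counts scaled to the library total) in libraries 1, 2 and 3.

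**Figure D2:**
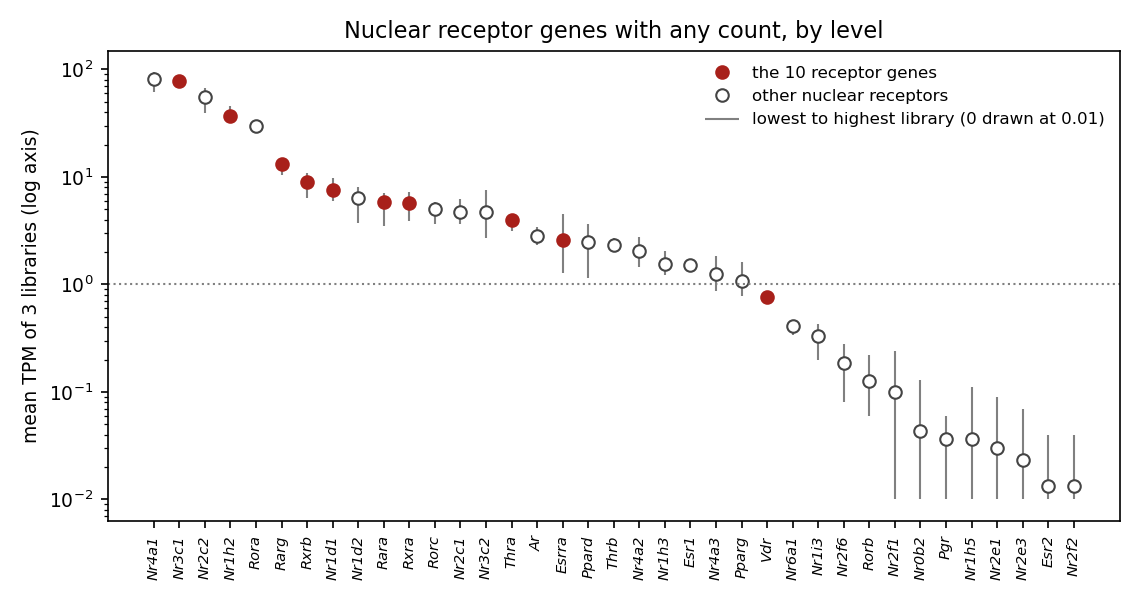
Mean level in TPM on a log axis of the nuclear receptor genes with any count, from highest to lowest, with filled points for the 10 receptor genes, open points for the other nuclear receptors and grey lines from the lowest to the highest of the 3 libraries. Filled points take ranks 2 and 4 at the top, and the lowest filled point, Vdr, lies at 0.757 TPM.

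Whether the 10 genes were measured alike in the 3 libraries was asked with a chi-square test of homogeneity on rounded expected counts against scaled library totals, adjusted by Benjamini-Hochberg over the 13071 genes with 30 or more counts. All 10 were tested and 5 differed at an adjusted p under 0.05 (Nr3c1, Nr1h2, Nr1d1, Rxra and Esrra), beside 54.5% of all genes tested. The median ratio between the highest and the lowest library in scaled counts was 1.35 for the 10 genes and 1.37 for all genes tested. In TPM, library 1 was the lowest for 7 of the 10 genes, beside 65.8% of the detected protein-coding genes. In scaled counts it was the lowest for 6 of them, beside 39.7%.

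**Figure D3:**
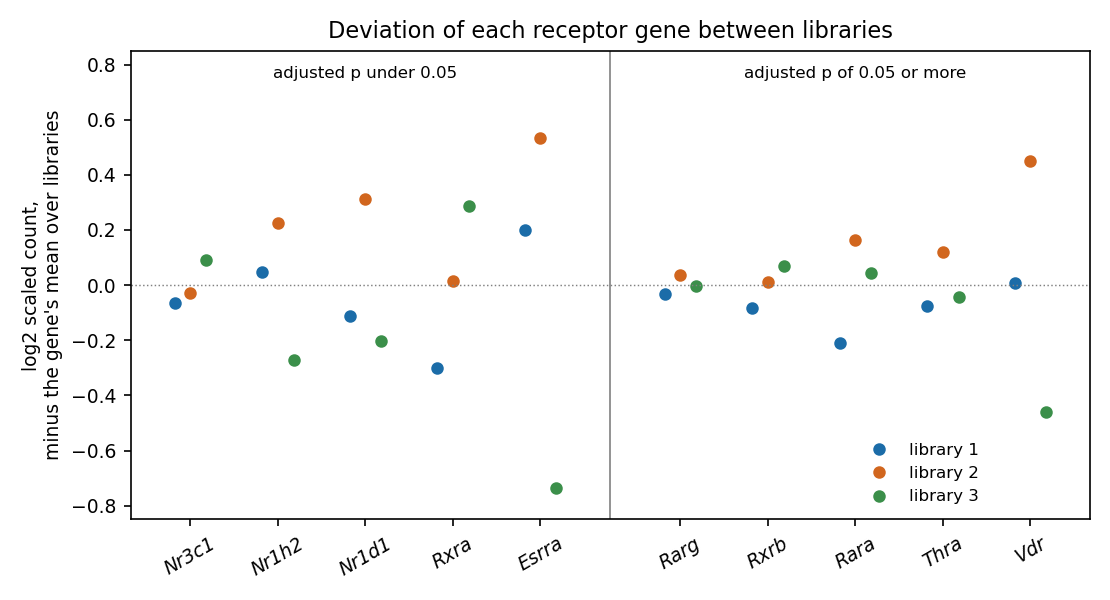
Log2 scaled count of each receptor gene in each library, minus the gene's own mean over the 3 libraries, with the genes whose adjusted p was under 0.05 on the left and the others on the right. Esrra had the widest spread on the left, from -0.74 in library 3 to 0.53 in library 2, and Vdr the widest on the right, from -0.46 to 0.45.

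Nr3c1, on chromosome 18 at 39410545 to 39519421 of mm10 on the minus strand, encodes the glucocorticoid receptor. It had 67.9, 79.2 and 85.1 TPM in libraries 1, 2 and 3, from 1487, 1636 and 1586 expected counts. Library 1 was lowest on both the TPM and the scaled count scale, and library 3 highest. The scaled counts spanned 1.11-fold, and the chi-square test gave an adjusted p of 0.0144. The call ended without library 1 (adjusted p = 0.081) and without library 3 (adjusted p = 0.937). Qars, a glutaminyl-tRNA synthetase gene, Camk2g and Atn1 were the protein-coding genes most like Nr3c1 over the 3 libraries, at distances of 0.0020, 0.0021 and 0.0072 in centred log2 scaled counts, and 666 of the 7874 genes compared lay within 0.1.

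The level of Nr3c1 in TPM rested on transcript models that the annotation marks as cut at an end. The 5 cut models are all shorter than its complete models, and a shorter model turns the same reads into a higher TPM. Together they took 64.9% ± 5.01 of the TPM of Nr3c1 from 28.1% ± 3.56 of its counts. Most of these counts lay on Nr3c1-208 (1891 bases), which took 47.8%, 43.8% and 43.1% of the TPM from 450, 409 and 391 counts. Nr3c1-209 (377 bases) took 19.4%, 15.7% and 18.3% from 21.6, 17.2 and 19.3 counts. The full-length transcript Nr3c1-203 (6436 bases) held 991, 1105 and 984 counts but 28.9%, 32.4% and 29.7% of the TPM. Over complete models alone, Nr3c1 had 27.4 ± 6.70 TPM and Nr1h2 31.5 ± 8.25 TPM, which turns their order round, within overlapping ranges. That sum leaves out the counts placed on cut models and keeps the retained-intron models of Nr1h2. Nr3c1 stayed above Nr1h2 with posterior mean values in place of the standard TPM (64.6 and 37.6 TPM) and in the second transcript table (43.6 and 19.3 TPM). Among its complete coding transcripts, those with a coding sequence of 792 codons took 1008, 1184 and 1144 counts, and Nr3c1-202, which is 1 codon longer, took 0, 21.5 and 32.1 counts.

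Most genes that act with or under the glucocorticoid receptor were detected. All 7 chaperone genes of the list were detected, led by Hspa8 at 2692 TPM, Hsp90ab1 at 941 TPM and Ptges3, the p23 cochaperone, at 185 TPM on average. All 7 differed between libraries, beside 54.5% of all genes tested. Genes with many counts pass the test at small differences: Hsp90ab1, with 14161, 14214 and 13078 counts, spanned 1.07-fold in scaled counts. The 8 glucocorticoid-induced genes were also all detected and 6 differed, beside the same 54.5%. Their highest means were those of Nfkbia, an inhibitor of NF-kappaB, at 470 TPM, Tsc22d3 (GILZ) at 343 TPM and Ddit4 at 20.3 TPM. Tsc22d3 had 256, 289 and 483.5 TPM in libraries 1, 2 and 3, highest in library 3, whereas Nfkbia had 521, 508 and 380 TPM, lowest in library 3. Fkbp5 stood on both lists, and had 11.2, 13.8 and 18.2 TPM. In TPM, library 3 was the highest for 4 of the 8 induced genes (Tsc22d3, Fkbp5, Per1 and Sgk1), library 2 for 3 (Dusp1, Klf9 and Ddit4) and library 1 for Nfkbia. Of these, Per1 and Klf9 did not pass the chi-square test (adjusted p = 0.671 and 0.108). Per1 had 2.15, 3.52 and 6.65 TPM from 71, 78 and 79 counts, a span of 1.16-fold in scaled counts. Hsd11b1, whose enzyme makes active glucocorticoid from its inert keto form, had 144, 138 and 136 TPM, whereas Hsd11b2, whose enzyme does the reverse, stayed at or under 0.09 TPM. All of these genes are also regulated by other signals, and no hormone-treated sample was analysed here.

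The retinoic acid receptors Rara and Rarg were both detected, and Rarb, the third, had no count. Rarg, on the minus strand at chr15:102234938-102257517, had 10.4, 14.5 and 14.4 TPM from 179, 202 and 175 expected counts. Its scaled counts differed by 1.050-fold at most (adjusted p = 0.913), the narrowest span of the 10 genes. Rara, on the plus strand at chr11:98927818-98974942, had 3.52, 6.82 and 7.14 TPM from 84, 117 and 96 expected counts. Library 1 was the lowest for Rara, but its scaled counts did not pass the test (adjusted p = 0.256), and the ratio of library 2 over library 1 was 1.30 with an exact 95% interval of 0.971 to 1.74. The mean of Rarg was 2.25 times that of Rara in TPM, and their ranges did not overlap.

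Rarg is known for 2 main receptor forms, gamma1 and gamma2, which start at separate promoters and differ in the amino-terminal region. Rarg-201 (458 codons) carries the gamma1 reading frame and Rarg-202 (447 codons) that of gamma2. Their coding sequences differ over the first 183 and 150 bases and are identical over the last 1191. The 60 coding bases around the junction are shown because they tell the forms apart, from mm10 with bases of 1 form alone in capitals:
Rarg-201: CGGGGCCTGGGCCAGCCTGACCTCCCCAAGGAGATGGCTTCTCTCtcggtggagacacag
Rarg-202: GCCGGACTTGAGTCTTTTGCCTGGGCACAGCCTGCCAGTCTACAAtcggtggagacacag
The capitals lie in an upstream exon of each transcript, and the windows span chr15:102241971-102252464 and chr15:102241971-102246105 with the introns removed.

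The gamma2 form was above gamma1 in every library. Rarg-202 took 68.7%, 54.3% and 58.8% of the TPM of Rarg in libraries 1, 2 and 3 from 147, 137 and 134 expected counts, and Rarg-201 took 12.1%, 21.3% and 13.98% from 28.3, 58.7 and 34.9 counts. Between these 2 forms, Rarg-202 held 79.2% ± 6.69 of the TPM in the main transcript table and 79.5% ± 6.79 in the second transcript table. Most of the remainder, 19.2%, 24.4% and 27.2%, went to Rarg-204, a model of 423 bases cut at an end, from 4, 6 and 6 counts. With posterior mean values in place of the standard TPM, Rarg-202 took 8.46% and Rarg-206, a cut model of 111 bases, took 82.8%. Rarg-206 had 0 counts in every library in the main transcript table. The whole gene rose to a mean of 74.4 TPM, 5.68 times the standard value. Rarg then had 63.8, 78.55 and 80.7 TPM in libraries 1, 2 and 3. Nr3c1 had 58.4, 66.1 and 69.3 TPM by the same estimate, lower in each library. Both the level of Rarg and its place among the 10 genes therefore depend on the estimate used.

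The 250 bases before each RefSeq start of Rarg (GRCm38.p6, the assembly of mm10) are shown because the 2 forms begin there. The first window, chr15:102257523-102257772, precedes a start that lies 5 bases upstream of the annotated start of Rarg-201, and the second, chr15:102246501-102246750, precedes the annotated start of Rarg-202 itself. Capitals mark AGGTCA, the half-site of many nuclear receptors, and GGGCGG, the GC box, on either strand:
Rarg-201 start: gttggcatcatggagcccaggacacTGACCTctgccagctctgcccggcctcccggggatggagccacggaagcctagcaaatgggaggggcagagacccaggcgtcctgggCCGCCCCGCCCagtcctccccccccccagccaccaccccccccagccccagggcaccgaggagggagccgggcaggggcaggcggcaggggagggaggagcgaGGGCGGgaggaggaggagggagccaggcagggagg
Rarg-202 start: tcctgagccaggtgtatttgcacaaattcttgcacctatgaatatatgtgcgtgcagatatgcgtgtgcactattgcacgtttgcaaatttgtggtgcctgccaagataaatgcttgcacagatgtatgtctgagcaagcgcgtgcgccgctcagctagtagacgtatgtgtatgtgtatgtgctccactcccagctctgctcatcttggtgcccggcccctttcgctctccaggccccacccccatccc
The window of Rarg-201 had a GC content of 74.4%, 1 match to AGGTCA and 3 to GGGCGG, of which a pair overlap, and the window of Rarg-202 had 52.4% and no match. Of all 32851 RefSeq windows of this length, 14.02% held AGGTCA and 32.7% held GGGCGG.

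Of the Rara transcripts, Rara-207 took the most, with 100%, 57.2% and 55.0% of the TPM from 84, 79.3 and 72.1 expected counts, and in this table the other transcripts had counts in libraries 2 and 3 alone. Its mean share of 70.8% was 59.2% in the second transcript table and 30.95% with posterior mean values. Rara-201, Rara-203, Rara-204 and Rara-207 share 1 coding sequence of 462 codons, which took 95.6% ± 7.69 of the TPM of complete coding transcripts. The start of Rara-207 coincided with a RefSeq start whose 250-base window, chr11:98939461-98939710, held neither AGGTCA nor GGGCGG.

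The retinoid X receptors, the shared partners, overlapped in level. Rxrb, on the plus strand at chr17:34031812-34038399, had 6.36, 9.83 and 10.8 TPM from 109, 125 and 116 expected counts, with no difference in scaled counts past the threshold (adjusted p = 0.778). Rxra, on the plus strand at chr2:27676440-27762957, had 3.90, 6.12 and 7.28 TPM from 149, 199 and 214 counts. Both were lowest in library 1 and highest in library 3. Rxrg, the third family member, had no count.

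Rxra differed between libraries (adjusted p = 0.00182), with a ratio of library 3 over library 1 of 1.5 (exact 95% interval 1.21 to 1.86). Its transcript length, averaged in the main table with abundance as the weight, was the longest of the 10 genes, at 4905 bases. When counts were scaled within bins of gene length, the adjusted p of Rxra was 0.214, and it was 0.184 without library 1 and 0.122 without library 3. Of the 5 genes that differed, Rxra was the one whose call ended under length scaling, and Nr3c1, Nr1h2, Nr1d1 and Esrra kept theirs at adjusted p values of 0.0431, 9.5e-05, 0.0346 and 0.022.

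Every count of Rxra was placed on Rxra-201 in both transcript tables. Rxrb, by contrast, was divided among forms. Rxrb-202 took 57.7%, 51.3% and 67.6% of its TPM, and Rxrb-203 took 37.2%, 27.6% and 0%, from 44.5, 43.4 and 0 counts. The coding sequence of Rxrb-203 has 12 more bases than that of Rxrb-202, after base 888 of both. The stretch is shown in capitals, from chr17:34036735-34036897 with the intron removed:
Rxrb-203: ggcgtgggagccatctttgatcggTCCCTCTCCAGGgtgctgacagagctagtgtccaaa
Rxrb-202: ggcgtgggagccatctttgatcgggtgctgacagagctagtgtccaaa
The 6 retained-intron models of Rxrb took 17.7% of its TPM on average and 6.15% of its counts.

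The genes that make, carry and break down retinoids were mostly near 0. Of 14 such genes 4 were detected, the retinal reductase genes Dhrs3 and Rdh11 at 62.6 and 13.3 TPM, the fatty acid and retinoic acid carrier Fabp5 at 18.1 TPM, and Stra6. The retinoic acid synthase genes Aldh1a2 and Aldh1a3 had means of 0.0467 and 0.0133 TPM, and Aldh1a1, Crabp1, Crabp2, Cyp26a1 and Cyp26c1 had no count. Of the 6 with enough counts, 2 differed between libraries, beside 54.5% of all genes tested. Dhrs3 was 1 of the 2, with 39.2, 82.5 and 66.0 TPM and its lowest value in library 1.

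Of 7 genes that retinoic acid is known to raise, 5 were detected: the gut-homing integrin chains Itgb7 and Itga4 at 249.6 and 156 TPM, Cd38 at 36.2 TPM, the gut-homing chemokine receptor Ccr9 at 24.2 TPM, and Tgm2. Ccr9 had 13.4, 28.5 and 30.8 TPM, and its scaled counts differed 2.01-fold (adjusted p = 1.5e-24), with library 1 lowest. In TPM, library 1 was also the lowest for Itga4, Cd38 and Tgm2, and library 3 for Itgb7 (249, 265 and 234 TPM). Library 1 was the lowest in TPM for 65.8% of the detected protein-coding genes. Of the 6 tested genes of this list 4 differed, beside 54.5% of all genes tested.

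Vdr, the vitamin D receptor gene on the minus strand at chr15:97854425-97910630, was the lowest of the 10. It had 0.840, 0.660 and 0.770 TPM from 13, 19 and 9 expected counts, which did not pass the test (adjusted p = 0.352). The ratio of library 2 over library 3 in scaled counts was 1.88, with an exact 95% interval of 0.811 to 4.72. The TPM order went against that of the counts: library 2 had the most counts and the lowest TPM. In libraries 1 and 3, 57.6% and 58.4% of the TPM came from Vdr-202, a cut model of 389 bases with 0.84 and 0.59 counts. Over complete models alone Vdr had 0.360, 0.660 and 0.320 TPM, and library 2 was the highest, whereas the M4 gene table described below had 9, 3 and 10 counts, with library 2 the lowest. None of 4 genes of vitamin D synthesis and breakdown was detected. Cyp2r1, a vitamin D 25-hydroxylase gene, was the highest at a mean of 1.34 TPM, and Cyp24a1, a classical target of the receptor, had no count.

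Nr1h2 encodes liver X receptor beta, which senses oxysterols. The gene lies on the minus strand at chr7:44549616-44553951 and had 33.2, 45.6 and 31.9 TPM from 406, 494 and 312 expected counts. Library 2 was highest and library 3 lowest in scaled counts, with a ratio of 1.41 (exact 95% interval 1.22 to 1.63). At 11.4 for each degree of freedom, its chi-square value was the largest of the 10 genes (adjusted p = 4.1e-05), and the call ended without library 3 (adjusted p = 0.195) but held without library 2 (adjusted p = 0.00879). Dtx2, a Notch regulator, Kif23, a kinesin of cell division, and Akap8l were most like Nr1h2 over the libraries, at distances of 0.0137, 0.0223 and 0.0232, and 66 of 7874 genes lay within 0.1. Nr1h3, the gene of liver X receptor alpha, had 2.05, 1.39 and 1.23 TPM.

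Nr1h2 was spread over 18 transcript models. Nr1h2-204 took 43.3%, 18.6% and 29.3% of the TPM, Nr1h2-203 took 4.27%, 26.7% and 4.01%, and the retained-intron model Nr1h2-205 took 12.8%, 14.9% and 13.6%. The coding sequences of Nr1h2-204 and Nr1h2-203 differ by 9 bases, after base 154. The stretch is shown in capitals, from chr7:44552213-44552530 with the intron removed:
Nr1h2-204: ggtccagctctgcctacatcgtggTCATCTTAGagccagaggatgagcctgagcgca
Nr1h2-203: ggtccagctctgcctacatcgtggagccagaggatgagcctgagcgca
Transcripts with the 446-codon reading frame that holds these 9 bases took 92.9%, 48.7% and 75.7% of the TPM of complete coding transcripts, and those with the 443-codon frame took 7.08%, 51.3% and 24.3%. In the second transcript table the shorter frame took 11.2%, 54.3% and 21.1%. Library 2 was therefore the highest for the shorter frame in both tables, from 187 counts in library 2 against 20.8 and 52.3 counts in libraries 1 and 3. Transcript shares were not tested between libraries, and reads across the 9 bases were not analysed here.

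Of 8 liver X receptor target genes 7 were detected. Abcg1, which exports cholesterol, led with 114.5, 141 and 123 TPM, and Lpcat3 and Fasn followed at means of 24.4 and 22.8 TPM. Scd1, a fatty acid desaturase gene, spanned 2.80-fold in scaled counts (adjusted p = 7.0e-13) with 3.07, 2.50 and 5.94 TPM, and was lowest in library 2. Of the 7 tested, 4 differed, beside 54.5% of all genes tested.

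Thra and Nr1d1 are neighbours that run towards each other on chromosome 11, Thra on the plus strand at chr11:98740638-98769006 and Nr1d1 on the minus strand at chr11:98767932-98775333. They overlap over 1075 bases, of which 263 are exonic in both, within Thra-201. No source used here states a strand setting for the counting, so reads of the shared bases cannot be told apart, and expected counts of both genes were fractional. Of the 31-base words of their transcripts, 7.85% for Nr1d1 and 5.17% for Thra occurred in the other gene, while the share for the other 8 genes was at most 3.47%, for Esrra.

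Thra encodes thyroid hormone receptor alpha and had 3.14, 4.51 and 4.28 TPM from 48.5, 59.3 and 47.5 expected counts. The libraries differed by 1.14-fold at most in scaled counts, and the test was not passed (adjusted p = 0.799). Its sister gene Thrb had 1.99, 2.73 and 2.30 TPM, below Thra in each library. The gene is known for 2 forms with separate ends: alpha1, which binds hormone, and alpha2, which does not. Thra-202 (410 codons) carries the alpha1 frame and Thra-201 (492 codons) that of alpha2. They share 1111 coding bases and then part, as shown here with the bases after the split in capitals, from chr11:98764377-98764436 for Thra-202 and chr11:98764377-98768187, intron removed, for Thra-201:
Thra-201: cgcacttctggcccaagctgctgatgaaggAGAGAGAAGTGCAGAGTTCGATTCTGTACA
Thra-202: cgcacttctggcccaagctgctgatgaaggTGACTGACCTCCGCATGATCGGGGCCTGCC

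The alpha1 form was above alpha2 in every library. Thra-202 took 55.1%, 64.2% and 45.6% of the TPM of Thra from 28.9, 41.2 and 25.2 counts, Thra-201 took 21.3%, 13.9% and 18.5% from 12.3, 9.79 and 11.2 counts, and the noncoding Thra-207 took 23.6%, 21.9% and 24.9%. Between the 2 receptor forms, alpha1 held 75.1% ± 6.10 of the TPM in the main transcript table and 76.9% ± 6.79 in the second. With posterior mean values, Thra-202 took 28.6% and Thra-201 10.2% of the gene. The overlap with Nr1d1 falls wholly outside Thra-202. Of 5 genes of thyroid hormone transport and conversion, only the transporter gene Slc16a10 was detected, with 1.78, 2.37 and 1.98 TPM, and Dio1 had no count.

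Nr1d1 encodes REV-ERB alpha, a heme-binding repressor of the circadian clock. It had 5.97, 9.70 and 7.05 TPM from 118, 170 and 106 expected counts, highest in library 2 on every scale. The ratio of library 2 over library 3 in scaled counts was 1.43 (exact 95% interval 1.11 to 1.84), and the adjusted p was 0.0121. Without library 2, the library with the lowest summed erythroid and plasma cell markers, the adjusted p was 0.725. These sums were low in library 2 and Nr1d1 high, and their part in the difference was not tested. Nr1d1-201 took 94.4%, 100% and 93.0% of its TPM.

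Of 19 clock genes, Nr1d1 among them, 15 were detected and 12 of the 18 tested differed between libraries, beside 54.5% of all genes tested. Bhlhe40 led with a mean of 58.4 TPM, followed by Rora, the activator that competes with REV-ERB alpha, at 29.6 TPM and Arntl (BMAL1), a target that REV-ERB alpha represses, at 17.1 TPM. Arntl had 10.6, 19.8 and 20.8 TPM, lowest in library 1. Nr1d2, the gene of REV-ERB beta, had 3.73, 8.03 and 7.54 TPM, so the order of the pair Nr1d1 and Nr1d2 differed between library 3 and the other two. Bhlhe41, not detected by the rule, spanned 4.33-fold in scaled counts (adjusted p = 0.001), from 13, 7 and 27 counts.

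Esrra encodes an estrogen-related receptor without a known natural hormone that acts on genes of mitochondrial energy use. It lies on the minus strand at chr19:6910977-6921813 and had 1.93, 4.50 and 1.28 TPM from 34, 46 and 17 expected counts. Library 2 was the highest and library 3 the lowest, and the ratio of 2.41 between them in scaled counts was the widest of the 10 genes (exact 95% interval 1.36 to 4.49, adjusted p = 0.0139). The call rested on few counts: it ended without library 2 (adjusted p = 0.0524), without library 3 (adjusted p = 0.467) and in the second transcript table (adjusted p = 0.0643). The order of the libraries also changed with the table. The M4 gene table described below had 14, 33 and 17 counts, with library 1 the lowest. The second transcript table had 65.9, 61.9 and 38.7 counts, with library 1 the highest, and 1.46, 2.07 and 1.35 TPM, with library 2 the highest. The retained-intron model Esrra-202 took 47.2%, 17.7% and 27.1% of the TPM, and Esrra-201, the single complete coding transcript, took 52.8%, 47.7% and 72.9%. In library 2, a further 24.5% went to Esrra-203, a cut model of 358 bases, from 1.39 counts. Esrra also overlaps Trmt112, a neighbour on the opposite strand with 1136, 954 and 772 expected counts, over 73 exonic bases. Of 6 genes listed as estrogen-related receptor targets 4 were detected, led by Atp5b at 382 TPM, Idh3a at 100.1 TPM and Acadm at 33.3 TPM, and Pdk4 had no count. The Esrra partner coactivator Ppargc1a had a mean of 0.05 TPM, and its relative Ppargc1b 7.65 TPM.

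**Figure D4:**
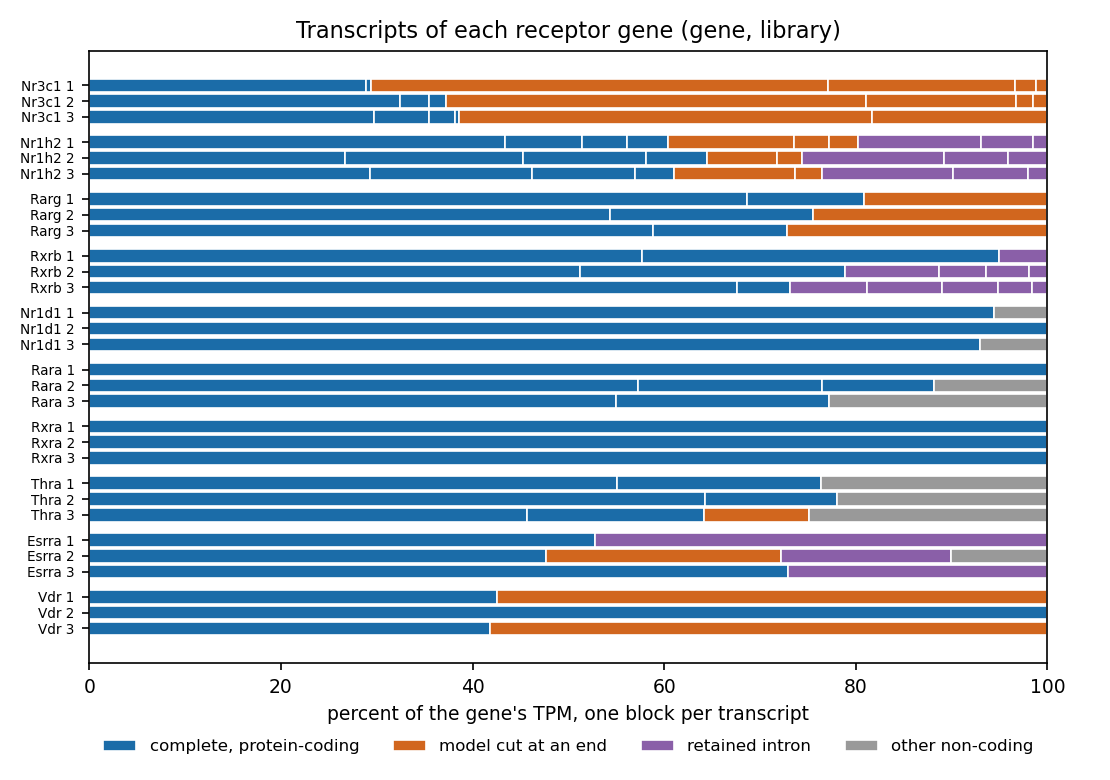
Percent of the TPM of each receptor gene on each of its transcripts, 1 bar per library and 1 block per transcript, coloured by whether the model is complete and coding, cut at an end, a retained intron or otherwise noncoding. Cut models take 70.7%, 62.7% and 61.4% of Nr3c1, and Rxra is a single block in all 3 libraries.

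Most genes of the complexes that the receptors recruit were detected. Of 10 coactivator genes 9 were detected and 5 of the 9 tested differed, beside 54.5% of all genes tested. The highest means were those of Med1 at 96.8 TPM, Ncoa3 at 63.0 TPM and Crebbp at 62.3 TPM. Carm1, an arginine methyltransferase, spanned 2.19-fold in scaled counts (adjusted p = 0.000213) with 3.41, 9 and 7.58 TPM. All 7 corepressor genes were detected and 3 differed, beside the same 54.5%, with the highest means for Ncor1 at 127 TPM, Gps2 at 107 TPM and Hdac3 at 52.8 TPM.

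The deposited tables did not count all 10 genes alike. In the gene table made on the older M4 annotation, Rxra had 53, 89 and 84 counts, 0.386 ± 0.0486 times its scaled count in the main table, and 15.4% of 10775 protein-coding genes were below 0.5 on this ratio. Nr1h2 had 623, 755 and 511 counts there, at a ratio of 1.52 ± 0.0494. The median over those protein-coding genes was 1.13, and 26.6% of them were above 1.5. In the M4 table Rara passed the test (adjusted p = 0.0398), with 64, 91 and 95 counts and library 1 again the lowest. The second transcript table counted 9 of the 10 genes within 0.794 and 1.01 times the main scaled counts on average, and Esrra at 1.36 times. Its mean TPM was lower than the main one for every member, though Vdr and Esrra were higher in library 3, at 0.949 and 1.35 TPM against 0.770 and 1.28 TPM. There, 26.1%, 19.1% and 19.6% of the total TPM went to 1 short pseudogene transcript of 237 bases, Gm29013.

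**Figure D5:**
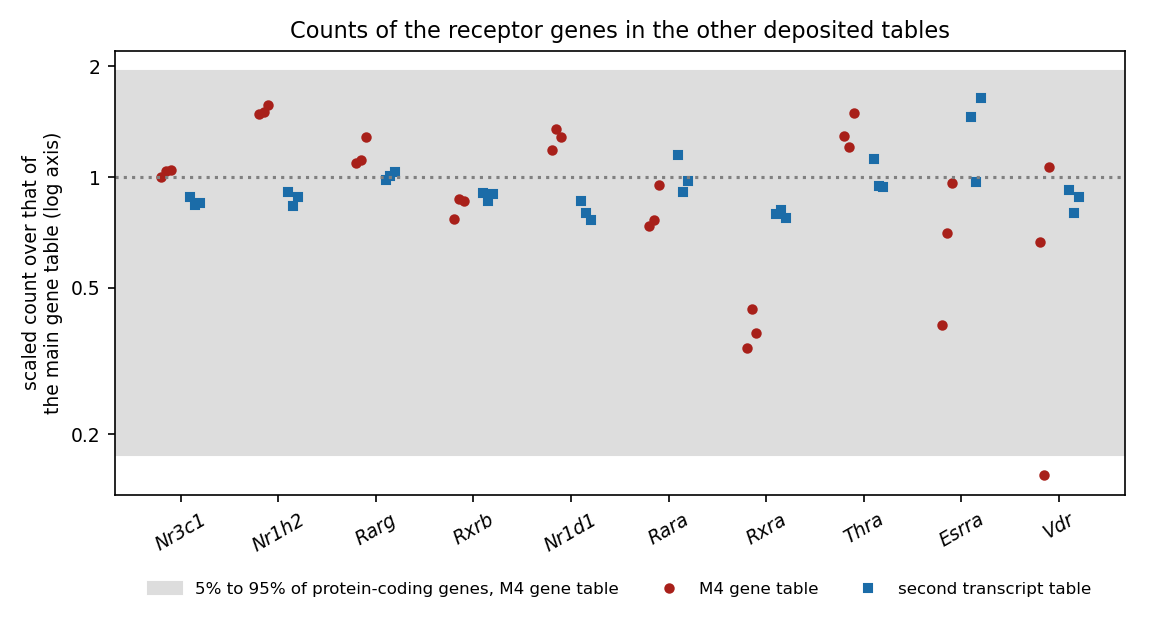
Scaled count of each receptor gene in the M4 gene table (circles) and in the second transcript table (squares), divided by its scaled count in the main gene table, on a log axis with 1 point per library and a grey band over the middle 90% of protein-coding genes for the M4 table. Rxra lies lowest on average among the circles, at 0.386, and Vdr has the single lowest point, at 0.155 from 3 counts.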

How the data were processed

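Polyadenylated RNA was measured in 3 libraries, which form 1 group. The authors deposited a gene table with expected counts and TPM, and a transcript table that adds, for each transcript, the percent of its gene's TPM, both from a transcriptome alignment to mm10 with GENCODE M21, per the deposited readme. Estimated counts and TPM on the same annotation are in a second transcript table, and whole-number counts on GENCODE M4 in a further gene table, per the deposited readme. Aligner, quantifiers and strandedness were not given in the sources used here. As the labels call the libraries technical replicates and do not say whether they came from 1 RNA pool, p-values compare these libraries and say nothing of the spread between animals.

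Expected counts were rounded to whole numbers. Spike-in and tRNA-like entries, 0.117%, 0.124% and 0.135% of counts, were left out. For each gene with 30 or more counts, a chi-square test of homogeneity compared counts with TMM-scaled totals (edgeR 4.0.16, R 4.3.3), with Benjamini-Hochberg adjustment over all genes tested and a threshold of 0.05. A gene at 1 TPM or more in every library was called detected. Likeness to a member is the Euclidean distance of centred log2 scaled counts over the 3 libraries, among protein-coding genes with 300 or more counts. Intervals are exact 95% binomial intervals. They and the limit for a count of 0 (3 counts) cover counting error only. The calculations used Python 3.11.15, numpy 2.4.6, scipy 1.17.1 and pandas 2.3.3, and the test was checked on simulated counts.

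Named genes are the 10 receptor genes, and of each gene list the 3 of highest mean TPM, those that differed at least 2-fold between libraries and those without counts. Marker lists of cell types are given mainly by their sums. Most named transcripts took at least 10% of their gene on average. Others, among them Rarg-206, Vdr-204 and Vdr-206, were named after their values were seen. A few further genes (among them Stra6, Tgm2, Fkbp5, Per1, Sgk1, Dusp1, Klf9, Hsd11b2, Cyp2r1, Ppargc1a, Nr1d2, Nr1h3 and Thrb) were named after their values were seen. The members and all lists were chosen with earlier results of these data known, so counts over them support nothing by themselves. RefSeq promoter windows (GRCm38.p6) were found for 8 of the 10 genes.

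Alternatives were other scalings (DESeq2 1.42.0 size factors, plain totals, length bins), other count and TPM thresholds, the other tables, posterior mean values and leaving out each library. Complete models alone and a rescaled second transcript table were added after seeing the data.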

Additional observations from a re-analysis of the deposited data

How the results depend on the processing

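The number of receptor genes that differed between libraries, 5, was 4 to 6 under the 7 alternative scalings, count minimums and tables, where the share of all genes called ran from 28.2% with no filter on counts to 63.7% in the M4 gene table, beside 54.5%. Leaving out 1 library at a time gave 1 to 3 genes: Nr1d1 alone without library 3, Esrra, Nr1d1 and Nr1h2 without library 1, and Nr1h2, Nr3c1 and Rxra without library 2. The share of all genes called was then 46.5%, 17.2% and 49.3%, and pairs of libraries also give fewer counts per test. The number of detected members, 9, was 9 or 10 under the other definitions and without any 1 library, and 5 at a threshold of 5 TPM. Of 70 alternative values for the mean levels, 53 lay within 1 SD of the value given and 17 did not, 9 of them in the second transcript table, where rescaling to the protein-coding sum of the main table left 1. Of 50 alternative values for the share of the leading transcript, 12 lay beyond 1 SD, 9 of them with posterior mean values. Posterior mean values changed the mean share by over 1.5 times for Rara-207 (30.95%, beside 70.8%), Rarg-202 (8.46%, beside 60.6%), Rxrb-202 (39.0%, beside 58.8%), Vdr-201 (13.8%, beside 61.5%), Thra-202 (28.6%, beside 55.0%) and Esrra-201 (30.5%, beside 57.8%). They did so for Nr1h2-204 too (19.97%, beside 30.4%), though within 1 SD. In Rarg and Vdr, cut models without counts in any library held large posterior mean shares: 82.8% for Rarg-206, 24.2% for Vdr-204 and 20.25% for Vdr-206. The cause of the shifts was not tested. Vdr, Esrra and the transcript shares of Thra and Rxrb are limited by depth, with 41 counts in all for Vdr and 97 for Esrra. No paired analysis was possible because the libraries form 1 group, so there was no second group to pair them with.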
